A study of Rattus norvegicus with 39 samples.

Results

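Rats that had eaten a diet with α-lipoic acid (LA) ad libitum from month 2 were compared at 28 months with rats of the same age that had eaten the same diet without it, by the messenger RNA of the cerebral cortex. The members are the 6 libraries that the labels give as 28 m AL (pools 7, 8 and 9) and 28 m AL+LA (pools 34, 35 and 36), of 39 libraries in all. All 6 came from male BN rats of the BN/SsNOlaHSD substrain, housed singly from month 2. AL rats ate the CRM diet ad libitum and AL+LA rats ate the CRM diet ad libitum with 1.5 g of racemic LA per kg. No rat of either group was restricted in food. Each library holds the RNA of 2 rats, so the 6 libraries stand for 12 rats, n = 3 pools a group, and the spread between pools is not the spread between rats. The groups set against them in tests are rats aged 12 months fed AL or AL+LA, and rats aged 28 months that were fed a restricted ration until month 12 and then ate ad libitum without LA (CR>AL) or with LA (CR>AL+LA). Levels, with no comparison of their own, are also given from AL rats aged 6 months and from further rats aged 28 months. The latter were restricted from month 2 throughout (CR), or restricted throughout with LA added from month 12 (CR>CR+LA). Others were fed AL or AL+LA until month 12 and restricted from then on (AL>CR and AL+LA>CR). CR rats aged 6 and 12 months complete the 13 groups. All 13 entered the filter on low counts, the scaling of levels and the fits named as of all groups. The study asked how such diets change transcription in the ageing cortex.

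LA is a cyclic disulfide that cells make in mitochondria, where it is bound to a few enzyme complexes, among them pyruvate dehydrogenase, the 2-oxoglutarate dehydrogenase complex and the glycine cleavage system. Eaten as a supplement, it is reduced in the cell by enzymes that include thioredoxin reductase, it binds metal ions, and it is known as an inducer of the genes under the transcription factor Nrf2, such as those of glutathione and the glutathione S-transferases. In the aged brain, astrocytes and microglia are known to raise genes of reactivity, among them Gfap and the genes of MHC class II.

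Reads on genes were 4537079, 3109488 and 3753929 in the AL pools and 4150520, 3898282 and 4112452 in the AL+LA pools, with overlapping ranges. Pools of a group differed by more than counting noise (chi-square per degree of freedom 4.61 to 24.6 over the 6 pairs), so none was a copy of another. The share of reads that did not align was 33.2%, 33% and 27.5% in the AL pools and 40.8%, 38.5% and 41.3% in the AL+LA pools. The groups did not overlap in this share (two-sided exact permutation test, p = 0.1, the smallest that 3 pools against 3 can give). Libraries of the AL diet without LA were also low in this share at 6 months (29.1% to 32.1%) and at 12 months (30.4% to 36.1%), and CR>AL pools lay between 40.1% and 40.7%, so a difference in how these libraries were made and the diet cannot be told apart. The 28S ribosomal RNA gene Rn28s, which the depletion of ribosomal RNA is meant to remove, stood at 5596, 6075 and 2928 CPM in the AL pools and at 8533, 32027 and 34794 CPM in the AL+LA pools (log2 fold change 2.37 ± 0.359 SE, adjusted p = 0.000676, and 2.04 with adjusted p = 0.0566 without pools 7 and 9). CPM here are counts scaled to the same total of reads on genes, with TMM factors over all 39 libraries, adjusted p-values are from edgeR's quasi-likelihood test, and fold changes are of AL+LA relative to AL throughout.

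The labelled tissue was checked against marker genes of its cell types and of other brain regions, and 2 AL pools stood apart. Gabra6, a GABA receptor subunit of cerebellar granule cells, was at 592 CPM in AL pool 7 and 531 CPM in AL pool 9, at 0.29 CPM in AL pool 8, and at 0, 0.822 and 0.782 CPM in the AL+LA pools. Fat2, a cadherin of the same cells, was at 288, 1.74 and 382 CPM in AL pools 7, 8 and 9 and at 4.21, 3.56 and 1.83 CPM with LA. Pool 8 was thus like the AL+LA pools and pools 7 and 9 were not. Cbln1, Car8, Neurod1 and Zic2, the other 4 markers of the cerebellum that could be matched by name, had the same pattern, and the 6 markers summed to 1313, 42.1 and 1270 CPM in AL pools 7, 8 and 9 and to 35.2 to 51.0 CPM in the AL+LA pools. All 6 were called lower in AL+LA (log2 fold change -9.46 to -2.11), without pools 7 and 9 none was, and Neurod1 was not without pool 7 alone (-2.11, adjusted p = 0.0509). The results below are therefore also given without AL pools 7 and 9, a fit chosen after the data were seen, in which pool 8 alone stands for AL and is assumed to vary like the AL+LA pools.

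**Figure D1:**
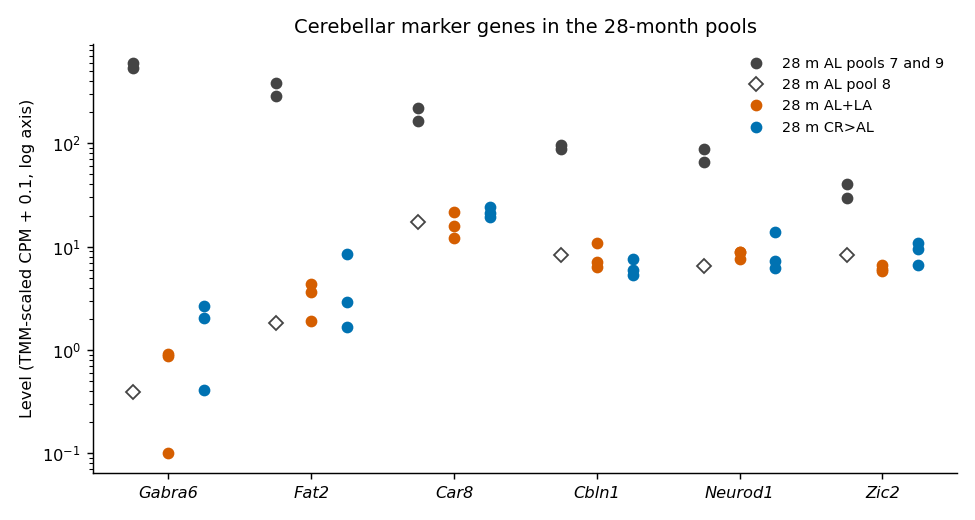
Level of 6 cerebellar marker genes in each 28-month pool (TMM-scaled CPM plus 0.1, log axis; 1 point is 1 pool of 2 rats). AL pools 7 and 9 lie far above AL pool 8, the 3 AL+LA pools and the 3 CR>AL pools for each gene, with Gabra6 at 592 and 531 CPM against 0.29 CPM in pool 8.

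Of 17230 genes tested, 831 (4.82%) had an adjusted p under 0.05, 528 higher with LA (3.06%) and 303 lower (1.76%). In 751 of the 831 the pools of the groups did not overlap, and over all genes tested the pools did not overlap in 22.9%. Genes called higher had a median log2 fold change of 0.91 in size, and genes called lower of 0.85. With pools 7 and 9 left out the count was 271 (1.57%), with 165 higher (0.958%) and 106 lower (0.615%), and 193 of these were among the 831, all in the same direction. With the mean level of the 6 cerebellar markers as a covariate in a fit of all 13 groups it was 397 (2.3%), with 299 higher (1.74%) and 98 lower (0.569%), of which 327 were among the 831. Without pool 8 the count rose to 1467, and without each of pools 7, 9, 34, 35 and 36 it was 487, 351, 483, 395 and 407. In 64.4% of the 303 genes called lower, pool 8 was the lowest AL pool, and so the nearest to the AL+LA pools, against 35.8% over all genes tested. In the genes called higher pool 8 was the highest AL pool in 48.3%, against 35.8% over all genes. Names were at hand only for 1669 of the genes, those that the study's own supplementary tables list as changed in some comparison, and 36.5% of them were called here, 23.4% higher and 13.1% lower, so a share of called genes in a list of named genes is high from the start.

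The leading named gene by adjusted p was Gfap, the intermediate filament protein of astrocytes. It was at 140, 203 and 171 CPM in the AL pools and at 693, 632 and 862 CPM in the AL+LA pools, a log2 fold change of 2.09 ± 0.159 SE (adjusted p = 1.08e-06). The lowest AL+LA pool was more than 3 times the highest AL pool, and pool 8 differed from pools 7 and 9 by less than it did from any AL+LA pool. When pools 7 and 9 were left out, the log2 fold change was 1.84 (adjusted p = 0.000198), and each fit that left out 1 pool called it. The other 6 diets measured at 28 months had means of 508 to 658 CPM, above AL and below AL+LA. Aqp4, the water channel of astrocytes, was at 614 to 670 CPM in AL and 720 to 778 CPM in AL+LA (log2 fold change 0.21, adjusted p = 0.394).

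The α-globin genes of red blood cells were next in rank. Hba2 was at 19.4, 27.3 and 27.1 CPM in AL and at 92.9, 123 and 106 CPM in AL+LA (log2 fold change 2.13 ± 0.169 SE, adjusted p = 1.08e-06). Hba-a2 was at 57.7, 52.2 and 77.1 CPM in AL and 190, 261 and 206 CPM in AL+LA (1.81 ± 0.164, adjusted p = 3.48e-06). The pools of the groups did not overlap in either, and both stayed called without pools 7 and 9. The α-globin genes are near-identical copies, and reads that mapped to more than 1 place were not counted, so how the signal is shared between them is uncertain. The pair marks blood in the tissue, and its summed level was 77.1 to 104.2 CPM in 28 m AL and 283 to 384 CPM in 28 m AL+LA. It was 63.9 to 226 CPM in 6 m AL and 169 to 486 CPM in 12 m AL. Pools of the 6 other diets at 28 months, with or without LA, lay at 161 to 422 CPM. The part of blood in other results was not tested.

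Further genes high in rank were Ywhah, which encodes the η form of the 14-3-3 adaptor proteins, Ctsb, a cysteine protease of lysosomes, Chi3l1, a secreted chitinase-like protein of astrocytes and macrophages, Nop10, a protein of the small nucleolar particles that modify ribosomal RNA, Tmsb10, which binds actin, and Dbndd2. Ywhah was at 336, 350 and 360 CPM in AL and 890, 939 and 932 CPM in AL+LA (log2 fold change 1.40 ± 0.125 SE, adjusted p = 3.32e-06). Ctsb was at 168, 184 and 168 CPM in AL and 400, 369 and 432 CPM in AL+LA (1.21 ± 0.128, adjusted p = 2.65e-05). In both, the spread within a group was small beside the gap between groups, and pool 8 sat with pools 7 and 9. Chi3l1 was at 13.3, 14.8 and 14.1 CPM against 38.8, 46.3 and 44.1 CPM (1.61 ± 0.175, adjusted p = 3.25e-05), and Nop10 at 8.77, 6.38 and 7.41 CPM against 31, 27.7 and 31.8 CPM (1.99 ± 0.205, adjusted p = 2.25e-05). Tmsb10 rose by 1.46 ± 0.166 and Dbndd2 by 1.52 ± 0.158 on the log2 scale. These 6 genes were called in each fit that left out 1 pool and again without pools 7 and 9, where their log2 fold changes were between 1.12 and 2.23. In each of the 6 genes the AL mean was below the means of all 6 other diets at 28 months.

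**Figure D2:**
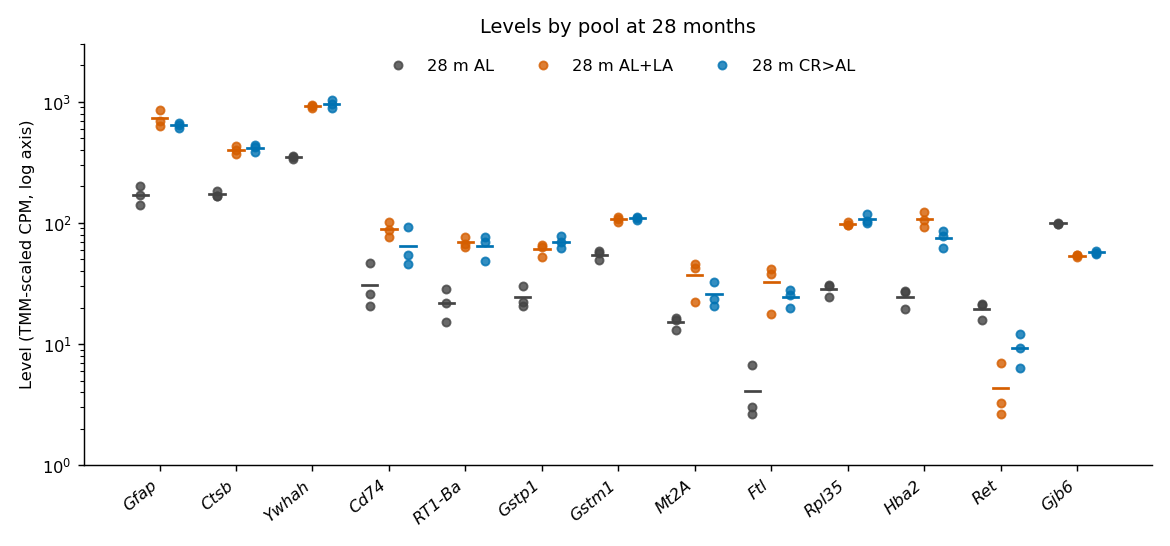
Level of 13 genes in each pool of 28 m AL, 28 m AL+LA and 28 m CR>AL (TMM-scaled CPM, log axis; points are pools, bars are means of 3 pools). The AL pools lie apart from the AL+LA pools in each gene, with Gfap at 140 to 203 CPM in AL and 632 to 862 CPM in AL+LA.

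Genes of MHC class II, which present peptides of extracellular origin on microglia and other antigen-presenting cells, were higher with LA in each of the 5 members that could be matched, of 8 in the list (background 3.06% of all genes tested and 23.4% of named genes called higher). RT1-Ba, the α chain of the rat's B molecule, was at 15.1, 28.4 and 22 CPM in AL and 67.0, 77.0 and 63.4 CPM in AL+LA (log2 fold change 1.68 ± 0.193 SE, adjusted p = 6.24e-05). RT1-Da, the α chain of the D molecule, was at 13.5, 21.2 and 12.3 CPM against 60.1, 54.8 and 39.6 CPM (1.74 ± 0.215, adjusted p = 0.000148). Cd74, the invariant chain that escorts the class II molecules through the cell, was at 20.6, 46.7 and 25.7 CPM against 76.7, 102 and 87.1 CPM (1.54 ± 0.221, adjusted p = 0.000505). The pools of the groups did not overlap in any of these, but pool 8 was the highest AL pool in each. RT1-Db1 rose by 1.50 and RT1-Bb by 1.43 on the log2 scale, the latter at 4.69, 13.9 and 5.56 CPM in AL and 16.6, 23.3 and 23.2 CPM in AL+LA. The median of the list was 1.54, and it was 1.05 without pools 7 and 9, when 4 of 5 members were called. Class II genes lie in a family of close paralogs, so counts of uniquely mapped reads are uncertain for single members. Means of the 6 other 28-month diets, with or without LA, were 48.5 to 76.0 CPM for RT1-Ba and 31.4 to 48.6 CPM for RT1-Da. They were 48.3 to 94.3 CPM for Cd74 and 23.5 to 38.6 CPM for RT1-Db1, and the AL mean of each was lower. The other 3 members of the list were not matched by name.

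The 4 RT1 genes share the Y box, a promoter element of class II genes, and their promoters are shown because these genes moved together. The sequences are from RefSeq on the GRCr8 build and cover 300 bases around the start of the gene, most of them before it, 5′ to 3′ on the strand of the gene. Capitals mark CTGATTGG, the letters searched on both strands.
RT1-Ba (chr20:4576807-4577106, + strand): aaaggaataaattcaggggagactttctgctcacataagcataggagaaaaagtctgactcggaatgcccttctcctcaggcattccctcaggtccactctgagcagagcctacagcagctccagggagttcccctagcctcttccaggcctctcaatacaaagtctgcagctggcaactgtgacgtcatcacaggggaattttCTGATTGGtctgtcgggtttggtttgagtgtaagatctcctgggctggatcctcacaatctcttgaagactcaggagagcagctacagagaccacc
RT1-Bb (chr20:4604069-4604368, - strand): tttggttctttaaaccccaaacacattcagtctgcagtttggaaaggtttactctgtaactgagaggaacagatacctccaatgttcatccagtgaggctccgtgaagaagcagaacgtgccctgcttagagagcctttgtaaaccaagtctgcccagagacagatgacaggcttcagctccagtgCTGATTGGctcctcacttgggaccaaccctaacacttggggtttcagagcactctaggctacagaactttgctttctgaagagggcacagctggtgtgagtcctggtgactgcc
RT1-Da (chr20:4515165-4515464, + strand): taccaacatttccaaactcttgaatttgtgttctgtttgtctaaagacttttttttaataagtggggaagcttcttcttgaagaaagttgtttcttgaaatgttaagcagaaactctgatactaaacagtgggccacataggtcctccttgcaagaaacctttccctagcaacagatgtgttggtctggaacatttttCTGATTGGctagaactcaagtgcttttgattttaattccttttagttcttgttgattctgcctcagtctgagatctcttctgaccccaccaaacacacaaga
RT1-Db1 (chr20:4560113-4560412, - strand): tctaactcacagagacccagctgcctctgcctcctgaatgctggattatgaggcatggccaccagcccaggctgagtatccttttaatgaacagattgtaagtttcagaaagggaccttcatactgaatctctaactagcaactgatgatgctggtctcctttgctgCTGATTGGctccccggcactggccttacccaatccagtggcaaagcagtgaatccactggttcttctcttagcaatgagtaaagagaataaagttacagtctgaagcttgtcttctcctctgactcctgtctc
Each of the 4 holds these letters once, and 3.55% of 27457 rat promoters of the same length hold them. The promoter of Cd74, whose mRNA also rose, does not hold them in this window. The letters were searched after the values were known, and a match is a description of the sequence.

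Metallothioneins, small cysteine-rich proteins that bind zinc and copper, and ferritin, the cage that stores iron, were higher with LA in 4 of 5 members (background 3.06% of all genes tested and 23.4% of named genes called higher). MT1 was at 3.06, 2.03 and 2.08 CPM in AL and 7.10, 13.7 and 16.4 CPM in AL+LA (log2 fold change 2.33 ± 0.367 SE, adjusted p = 0.000914). Mt2A was at 15.9, 13.1 and 16.4 CPM in AL and 22.4, 45.7 and 42.5 CPM in AL+LA (1.27 ± 0.234, adjusted p = 0.00329). AL+LA pool 34 was the lowest of its group in both and still above every AL pool. The 6 other 28-month diets had means of 8.74 to 17.7 CPM for MT1 and 25.7 to 37.4 CPM for Mt2A, above the AL means. Mt3, the metallothionein of neurons and astrocytes, was at 75.9 to 105 CPM in AL and 96.0 to 162 CPM in AL+LA, with overlapping pools (0.55, adjusted p = 0.0814), and passed without pool 34 (0.71, adjusted p = 0.041). The ferritin light chain gene Ftl was at 2.65, 6.67 and 3.01 CPM in AL and 17.7, 41.6 and 37.5 CPM in AL+LA (3.02 ± 0.343, adjusted p = 6.01e-05). Ftl has many copies in the genome and only uniquely mapped reads were counted, so its level is uncertain. Its means in the 6 other 28-month diets were 22.7 to 32.2 CPM, above the AL mean. The ferritin heavy chain gene Fth1 was at 337, 404 and 322 CPM against 490, 521 and 544 CPM (0.55 ± 0.131, adjusted p = 0.0197) and lost the call without any of pools 7, 9, 34, 35 or 36 (0.48 to 0.58, adjusted p 0.0536 to 0.118). Without pools 7 and 9 together MT1, Mt2A and Ftl stayed called, and the median of the list was 1.48 in place of 1.27.

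The promoters of the metallothionein genes that rose are shown with the letters TGCNCNC in capitals, searched on both strands. These letters are looser than the core of the metal response element, TGCRCNC, where R is A or G. GAGAGCA in Mt1 and GAGGGCA in Mt2A match the looser letters only.
Mt1 (chr19:10832926-10833225, - strand): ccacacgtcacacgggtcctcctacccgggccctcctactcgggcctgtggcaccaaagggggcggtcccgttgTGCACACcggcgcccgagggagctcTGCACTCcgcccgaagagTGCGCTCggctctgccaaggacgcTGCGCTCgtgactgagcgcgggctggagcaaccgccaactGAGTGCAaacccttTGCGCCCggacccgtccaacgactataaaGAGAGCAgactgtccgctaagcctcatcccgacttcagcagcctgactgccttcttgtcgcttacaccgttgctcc
Mt2A (chr19:10838659-10838958, - strand): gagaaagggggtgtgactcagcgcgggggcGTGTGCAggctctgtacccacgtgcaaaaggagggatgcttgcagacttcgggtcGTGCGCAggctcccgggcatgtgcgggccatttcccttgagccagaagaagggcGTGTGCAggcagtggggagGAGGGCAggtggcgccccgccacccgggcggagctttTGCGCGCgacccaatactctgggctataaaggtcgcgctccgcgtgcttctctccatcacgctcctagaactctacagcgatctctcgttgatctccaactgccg
Mt1, listed as MT1 in the names used here, holds 7 matches to the looser letters and Mt2A holds 5, none overlapping another. At least 7 matches occur in 0.0983% and at least 5 in 0.652% of the 27457 promoters, and at least 1 in 50.1%. The promoter of Mt3, which did not pass the threshold, also holds 5.

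Of the glutathione S-transferases, which couple glutathione to electrophiles, 4 of the 5 matched members were higher with LA, of 21 genes in the list (background 3.06% of all genes tested and 23.4% of named genes called higher). Gstp1 was at 22.2, 30.5 and 20.6 CPM in AL and 52.5, 66.0 and 63.4 CPM in AL+LA (log2 fold change 1.32 ± 0.175 SE, adjusted p = 0.000261). Gstm1 was at 49.6, 56.0 and 58.6 CPM against 108, 103 and 112 CPM (0.98 ± 0.137, adjusted p = 0.000449), and Gsta1 at 58.8, 53.4 and 47.9 CPM against 93.3, 110 and 105 CPM (0.94 ± 0.142, adjusted p = 0.000676). In these 3 the pools were apart by a wide margin, each fit that left out 1 pool called them, and without pools 7 and 9 the log2 fold changes were 0.99, 0.94 and 0.94, all called. Gstt3 was at 29.2, 32.2 and 34.5 CPM against 41.9, 54.8 and 49.3 CPM (0.61 ± 0.160, adjusted p = 0.0354), and lost the call without pool 7, 9, 35 or 36 (adjusted p 0.0804 to 0.172) and without pools 7 and 9 together (0.59, adjusted p = 0.209). Gsto1, an ω-class member with thioltransferase activity, was at 77.5, 82.4 and 69.7 CPM in AL and 60.5, 50.1 and 55.3 CPM in AL+LA (-0.47, adjusted p = 0.0673). Means of the 6 other 28-month diets were 56.5 to 70.2 CPM for Gstp1 and 39.6 to 52.7 CPM for Gstt3. They were 101 to 111 CPM for Gstm1 and 77.7 to 102 CPM for Gsta1, and the AL mean of each gene was lower. Gsta and Gstm genes have close paralogs, so their counts are uncertain as far as reads were shared. The Gstp1 promoter, which holds the core of the antioxidant response element, TGACNNNGC, is shown with that match in capitals.
Gstp1 (chr1:210769656-210769955, - strand): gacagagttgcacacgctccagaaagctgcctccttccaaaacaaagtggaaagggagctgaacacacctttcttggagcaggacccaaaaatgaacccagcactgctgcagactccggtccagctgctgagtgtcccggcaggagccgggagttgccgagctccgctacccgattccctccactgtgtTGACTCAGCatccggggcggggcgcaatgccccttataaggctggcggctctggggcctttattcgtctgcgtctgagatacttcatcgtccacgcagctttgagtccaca
It is the one match in this window, on the strand of the gene, and 12.2% of the 27457 promoters hold at least 1 on either strand. Gsta1 also holds 1, and Gstm1 and Gstt3 hold none.

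Of the other redox lists 1 gene passed (background 3.06% of all genes tested and 23.4% of named genes called higher). Prdx5, a peroxiredoxin of mitochondria and peroxisomes, was the 1 of 7 matched members of the thioredoxin list that passed, at 54.3, 58.6 and 50.0 CPM in AL and 68.7, 103 and 75.3 CPM in AL+LA (log2 fold change 0.60 ± 0.160 SE, adjusted p = 0.0373), and it lost the call without pool 7, 9, 35 or 36 (adjusted p 0.0708 to 0.238) and without pools 7 and 9 together (adjusted p = 0.316). Txnrd1, the cytosolic thioredoxin reductase, was at 27.5, 31.9 and 28.0 CPM against 41.7, 41.6 and 40.9 CPM (0.51, adjusted p = 0.0679). Txnip, which binds and inhibits thioredoxin, had a log2 fold change of 0.51 (adjusted p = 0.0618), the glutaredoxin Glrx of 0.57 (adjusted p = 0.0788) and Txndc17 of 0.74 (adjusted p = 0.0996). The pools of these 4 genes did not overlap although none passed, and without pool 8 Txnrd1, Txnip and Glrx did (adjusted p 0.0295 to 0.0475). None of the 7 matched members of the list of Nrf2 and glutathione synthesis passed, with a median of 0.40, and the one with the smallest p was Gpx1, a glutathione peroxidase (18 to 25.2 CPM against 28.4 to 33.6 CPM, 0.62, adjusted p = 0.0618), which passed without pool 8 (0.80, adjusted p = 0.00961). Without pools 7 and 9 the superoxide dismutase gene Sod1 alone of the 7 was called higher (0.85, adjusted p = 0.0156, against 0.43 and 0.128 with all pools). Of the enzymes that make, carry or use protein-bound lipoate 3 of 23 were matched and none passed. The one with the smallest p was Amt, the aminomethyltransferase of the glycine cleavage system, at 17.4 to 18.4 CPM in AL and 7.94 to 14 CPM in AL+LA (-0.74, adjusted p = 0.0735), which passed without pool 34 (-1.01, adjusted p = 0.0396).

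Genes of the respiratory chain were higher with LA or did not pass, and none of the nuclear-encoded members was called lower. Atp5c1 of ATP synthase was the one below 0 (-0.51, adjusted p = 0.0729), and it was called lower without pool 8 (-0.61, adjusted p = 0.0146). Of 20 matched members of complex I, 8 were called higher (median 0.53, all 20 above 0), of 6 of complex III 4 (0.78), of 9 of cytochrome c oxidase 4 (0.58) and of 7 of ATP synthase 2 (0.45), beside a median of -0.01 over all genes tested and 0.34 over named genes, of which 3.06% and 23.4% were called higher. Ndufa3, an accessory subunit of complex I, was at 8.57, 8.41 and 11.8 CPM in AL and 24.6, 37.5 and 33.1 CPM in AL+LA (1.71 ± 0.219 SE, adjusted p = 0.000165). Uqcrb, a subunit of complex III listed under a pair of identifiers, rose by 1.10 and by 1.16. Atp5i, a membrane subunit of ATP synthase, was at 22.6, 14.5 and 27.5 CPM against 47.2, 62.4 and 51.6 CPM (1.30 ± 0.198, adjusted p = 0.000688). For these the pools did not overlap, and pool 8 was the highest AL pool in none. In the 6 other 28-month diets means were 33.3 to 44.0 CPM for Ndufa3 and 53.0 to 70.6 CPM for Atp5i, above the AL means. Ndufab1, Ndufb3, Ndufb7, Uqcr11, Cox5b and Cox6a1 were each called in all 6 fits that left out 1 pool, and Cox6b1, Cox8a and Uqcrq in 4, 5 and 4 of them: the call was lost without pool 7 or 35, without pool 9, and without pool 9 or 34 (adjusted p 0.051 to 0.0976). Atp5o (0.57, adjusted p = 0.0386) was called in 1 of 6, and lost the call without pool 8, 9, 34, 35 or 36 (adjusted p 0.0515 to 0.182). Of complex II the 1 matched member, Sdhb, had 0.40 (adjusted p = 0.172) and passed without pools 7 and 9 (0.75, adjusted p = 0.032), and of the 3 matched genes of the mitochondrial genome ND3 passed (0.55, adjusted p = 0.0324), but not without pool 7, 34, 35 or 36 (adjusted p 0.0763 to 0.117). With pools 7 and 9 left out the called counts were 4 of 20 for complex I, 3 of 6, 3 of 9 and 3 of 7, with medians of 0.54, 0.78, 0.69 and 0.62.

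Genes of cytosolic ribosomal proteins were grouped after their values were seen. Of 64 named, 29 were called higher and 1 lower, with a median of 0.55 (background 3.06% of all genes tested and 23.4% of named genes called higher, 1.76% and 13.1% lower). Rpl35 was at 24.5, 30.7 and 30.3 CPM in AL and 95.3, 96.1 and 103 CPM in AL+LA (log2 fold change 1.79 ± 0.149 SE, adjusted p = 1.52e-06), and Rpl8 at 27.3, 28.1 and 23.8 CPM against 84.9, 100 and 87.1 CPM (1.78 ± 0.150, adjusted p = 1.52e-06). Both varied little within the groups and stayed called without pools 7 and 9, when 19 of the 64 were called higher and none lower. The count called higher was 18 without pool 9 or 35 and 19 without pool 36. These genes have many processed copies in the genome, to which reads of the gene can also map. Other 28-month diets, 6 in all, had means of 94.8 to 114 CPM for Rpl35 and 95.3 to 110 CPM for Rpl8, above the AL means.

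**Figure D3:**
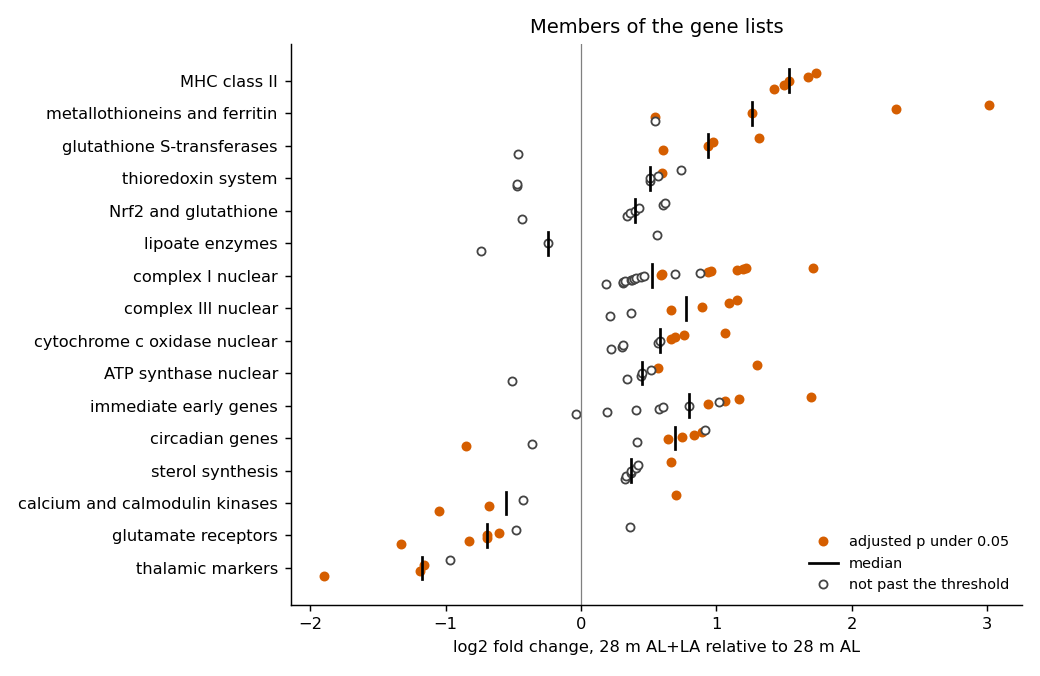
log2 fold change of AL+LA relative to AL for the members of 16 gene lists (filled points have an adjusted p under 0.05, open points do not, black bars are list medians). The 5 MHC class II genes are all called higher with a median of 1.54, and the glutamate receptors and thalamic markers have medians of -0.69 and -1.18.

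Among the named genes lower with LA whose pools did not overlap, those with the smallest adjusted p were RGD1559955, a gene with no established name, and Ret, the receptor tyrosine kinase of the GDNF family of neurotrophic factors. Ret was at 15.7, 20.9 and 21.5 CPM in AL and 2.66, 3.29 and 7.04 CPM in AL+LA (log2 fold change -2.16 ± 0.305 SE, adjusted p = 0.000449), and RGD1559955 at 32, 36 and 42.4 CPM against 16.2, 14.2 and 11.7 CPM (-1.38 ± 0.192, adjusted p = 0.000442). HIST1H4B (ENSRNOG00000046636), which encodes histone H4, was at 53.3, 68.2 and 48.6 CPM against 28.2, 21.1 and 19.3 CPM (-1.30 ± 0.185, adjusted p = 0.000482), and its counts are uncertain because histone H4 genes are near-identical. Gjb6, the astrocyte gap junction protein connexin 30, was at 101, 97.7 and 98.6 CPM against 53.9, 53.9 and 52.1 CPM (-0.89 ± 0.133, adjusted p = 0.000676). In the first 3 of these genes pool 8 was above at least 1 of pools 7 and 9, and in Gjb6 the 3 AL pools were nearly level. When pools 7 and 9 were left out, each stayed called, at -2.28, -1.35, -1.57 and -0.88 in the same order. Gjb6 had the least spread of them, with an SD of 1.46 CPM in AL and 1.02 CPM in AL+LA.

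The rest of the 12 leading lower genes were less high in pool 8. Unc13c, a presynaptic priming protein, was at 110, 48.7 and 116 CPM in AL pools 7, 8 and 9 and 32.6, 28.8 and 33.9 CPM in AL+LA (log2 fold change -1.53 ± 0.231 SE, adjusted p = 0.000676). Dnah11, an axonemal dynein, was at 30.0, 13.1 and 38.2 CPM against 7.54, 8.49 and 5.48 CPM (-1.93 ± 0.309, adjusted p = 0.00107). Calb2, which encodes calretinin, was at 43.3, 19.7 and 41.4 CPM against 4.88, 10.1 and 13.6 CPM (-1.90 ± 0.306, adjusted p = 0.00108). In each of the 3 genes pool 8 lay between the AL+LA pools and the other AL pools. The same held for Rgs8, a regulator of G-protein signalling, Camk4, a calmodulin-dependent kinase, Ctxn3 and the cation channel gene Trpm3 (-1.69 to -1.05). Without pools 7 and 9 Trpm3 stayed called (-0.82, adjusted p = 0.0159), and Unc13c (-0.62), Dnah11 (-0.86), Calb2 (-1.07), Rgs8 (-0.72), Camk4 (-0.65) and Ctxn3 (-1.13) were not (adjusted p 0.0703 to 0.298). Heph, the ferroxidase hephaestin, was at 30.0, 25.8 and 36.1 CPM against 15.3, 10.1 and 9.91 CPM (-1.37, adjusted p = 0.000881), and had -1.12 without pools 7 and 9 (adjusted p = 0.0653).

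**Figure D4:**
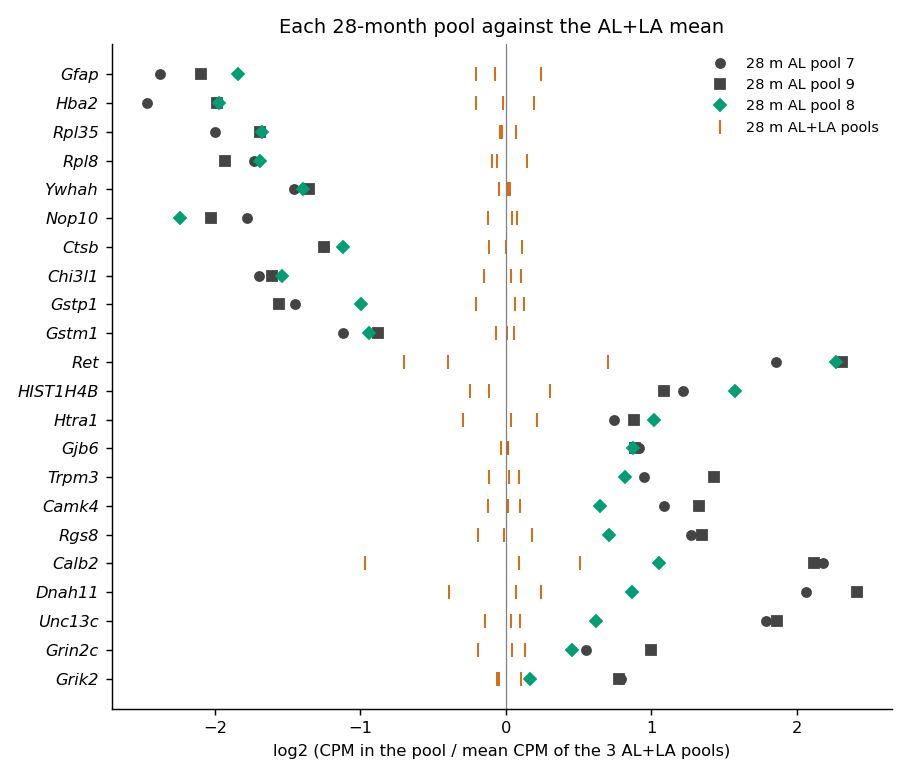
Level of each 28-month pool relative to the mean of the 3 AL+LA pools (log2 of the ratio of CPM) for 22 genes, with AL pools 7 (circles), 9 (squares) and 8 (diamonds) and the AL+LA pools (ticks). Pool 8 lies with pools 7 and 9 for Gfap, Ywhah, Rpl35, Ret and Gjb6, and nearer to the AL+LA pools for Unc13c, Dnah11 and Grik2.

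Of the glutamate receptor genes, which encode the channels and G-protein-coupled receptors of excitatory synapses, 5 of 7 matched members were called lower with LA and none higher (background 1.76% of all genes tested and 13.1% of named genes called lower), with a median of -0.69. Grin2c, an NMDA receptor subunit that is abundant in cerebellar granule cells, was at 39.4, 36.8 and 53.7 CPM against 23.5, 27.7 and 29.5 CPM (log2 fold change -0.69 ± 0.179 SE, adjusted p = 0.0308). Pool 8 was above the AL+LA pools for Grin2c, and it was the lowest AL pool. Grik2, a kainate receptor subunit, was at 207, 134 and 205 CPM against 128, 114 and 116 CPM (-0.61 ± 0.156, adjusted p = 0.0307). Gria4, an AMPA receptor subunit, was at 362, 186 and 380 CPM against 218, 180 and 175 CPM, with overlapping pools (-0.69, adjusted p = 0.0455). With pools 7 and 9 left out none of the 7 was called and the median was -0.17, with Grin2c at -0.46 (adjusted p = 0.371) and Grik2 at -0.17 (adjusted p = 0.697). With the cerebellar marker level as a covariate none was called either. Of fits that left out 1 pool, Grin2c lost the call without pool 9, 34, 35 or 36 (adjusted p 0.065 to 0.19) and Grik2 without pool 7, 9, 34, 35 or 36 (adjusted p 0.0677 to 0.151).

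Of 4 matched calcium and calmodulin kinase genes, Camk4 and Camk2d, a subunit of calmodulin kinase II, were called lower and Camk2n1, the inhibitor of that kinase, was called higher. Of all genes tested 1.76% were called lower and 3.06% higher, and of named genes 13.1% and 23.4%. Camk2n1 was at 140, 131 and 108 CPM in AL and 218, 205 and 193 CPM in AL+LA (log2 fold change 0.70 ± 0.137 SE, adjusted p = 0.00492), and had 0.65 without pools 7 and 9 (adjusted p = 0.049). Camk2d was at 261, 168 and 241 CPM against 150, 106 and 162 CPM (-0.68 ± 0.173, adjusted p = 0.0284), with pool 8 just above the highest AL+LA pool, and lost the call without pool 7, 9, 34 or 35 (adjusted p 0.064 to 0.16) and without pools 7 and 9 (-0.27, adjusted p = 0.587).

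Immediate early genes, which neurons switch on within minutes of activity, included 4 called higher of 11 matched, with a median of 0.80 (background 3.06% of all genes tested and 23.4% of named genes called higher). Arc, whose protein acts at active synapses, was at 143, 122 and 78.9 CPM in AL and 279, 201 and 178 CPM in AL+LA (log2 fold change 0.94 ± 0.194 SE, adjusted p = 0.00753). Btg2 was at 13.3, 8.41 and 7.41 CPM against 68.5, 12.0 and 13.3 CPM, so that 1 pool, 34, set its mean (1.70, adjusted p = 0.0452), and without that pool it had 0.36 (adjusted p = 0.603), while without pool 7, 8 or 9 it had 1.53 to 2.01 (adjusted p 0.0554 to 0.178). Jun (1.06) and Egr3 (1.17) were also called. Arc lost the call without pool 9 or 34 (adjusted p 0.05 and 0.0642), Jun without pool 9, 34 or 36 and Egr3 without pool 7, 9 or 36 (adjusted p 0.0529 to 0.121). When pools 7 and 9 were left out, Jun alone of the 11 was called (1.69, adjusted p = 0.0283). With the cerebellar marker level as a covariate none was, and the median was 0.37.

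The clock genes Bhlhe40 (log2 fold change 0.75), Dbp (0.64), Nr1d1 (0.84) and Bhlhe41 (0.89) were called higher and Rora (-0.85) lower, of 8 matched (background 3.06% and 1.76% of all genes tested, 23.4% and 13.1% of named genes). Dbp, an output gene of the clock, was at 35.5, 35.4 and 30.1 CPM in AL and 53.9, 52.3 and 51.1 CPM in AL+LA (adjusted p = 0.0177). None of the 8 was called without pools 7 and 9, and each of the 5 lost the call without 2 to 5 of the single pools (adjusted p 0.0563 to 0.185). The time of day at which rats were killed was not at hand.

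Of 7 matched genes of sterol synthesis 1 passed, Fdft1, which encodes squalene synthase (background 3.06% of all genes tested and 23.4% of named genes called higher). It was at 61.8, 68.2 and 59.3 CPM against 106, 109 and 84.2 CPM (log2 fold change 0.67, adjusted p = 0.0111). It lost the call without pool 9, 34 or 35 (adjusted p 0.0642 to 0.0733). Of 3 matched acetyltransferases and deacetylases none passed, the smallest p being that of Kat6a (-0.47, adjusted p = 0.0947), which passed without pool 8 (-0.59, adjusted p = 0.0177). No neurotrophin or neurotrophin receptor of the list was matched.

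The 18 chromatin-related genes that the study lists as shared by restriction and LA were chosen by the study on libraries that include these, so their direction here is no independent evidence. Of the 18, 5 were called higher and 11 lower, with a median of -0.57 (background 3.06% and 1.76% of all genes tested, 23.4% and 13.1% of named genes). Rtf1, a subunit of the Paf1 complex of transcription elongation, was at 48.2, 44.1 and 47.7 CPM in AL and 75.8, 78.9 and 74.0 CPM in AL+LA (log2 fold change 0.71 ± 0.137 SE, adjusted p = 0.00474), and Gnas, the stimulatory G-protein subunit, rose by 0.88 (adjusted p = 0.00175). H2afy, the histone variant macroH2A1, was at 92.0, 70.2 and 115 CPM against 44.6, 52.6 and 56.8 CPM (-0.85 ± 0.169, adjusted p = 0.00571). Without pools 7 and 9 Rtf1, Gnas and Mt2A were called higher and HIST1H4B lower, 4 of the 18. Chd7, a chromatin remodeller, was at 47.1, 23.8 and 65.1 CPM against 21.1, 26.6 and 22.4 CPM (-0.97), with pool 8 among the AL+LA pools and -0.03 without pools 7 and 9 (adjusted p = 0.971), and lost the call without any of pools 7, 9, 34, 35 and 36 (adjusted p 0.0639 to 0.214). H2afy lost it without pool 9 (-0.67, adjusted p = 0.0539). The list also holds Zic2, one of the cerebellar markers. Trp53bp1, Kansl1, Kdm6a, Usp3, Ndst3 and H3f3c were called lower (-1.02 to -0.56) and Por and Bhlhe41 higher (0.72 and 0.89). Each of these 8 lost the call without 3 or more of the single pools (adjusted p 0.0514 to 0.202). Mt3 (0.55) and Rab3b (0.54) did not pass.

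Markers of cell types other than the cerebellum were mixed in direction. Their counts stand beside 23.4% of named genes called higher and 13.1% lower, and 3.06% and 1.76% of all genes tested. Microglial markers were called higher in 4 of 5 matched, Aif1 (log2 fold change 0.83), Itgam (1.50), Tyrobp (1.07) and Tmem119 (0.73), while C1qc was at 18, 30.2 and 19.7 CPM in AL and 20.6, 17 and 30.8 CPM in AL+LA (0.03, adjusted p = 0.972). The 5 summed to 55.1 to 75.7 CPM in AL and 91.8 to 110 CPM in AL+LA, and none was called without pools 7 and 9. In bulk tissue, more cells of a type and more RNA of a gene in each cell cannot be told apart, and the same holds for every marker here. Myelin genes were higher in 2 of 3, Mog (0.67) and Opalin (0.79), with summed levels of 313 to 389 CPM against 522 to 594 CPM, and the excitatory neuron genes Nrgn (1.04) and Neurod6 (0.89) in 2 of 2, at 96.5 to 129 CPM against 190 to 260 CPM. With pools 7 and 9 left out Neurod6 alone of these 4 stayed called (0.98, adjusted p = 0.0159). Of the interneuron genes Npy (1.32) and Sst (0.85) were higher and Gad1, the enzyme of GABA synthesis, lower (277, 242 and 283 CPM against 182, 192 and 153 CPM, -0.61, adjusted p = 0.012). Neither these 2 nor Gad1 was called without pools 7 and 9. Vip, the other matched interneuron gene, did not pass (means of 41.1 CPM in AL and 55.9 CPM in AL+LA). The 4 interneuron genes summed to 352 to 374 CPM in AL and 315 to 383 CPM in AL+LA, with overlapping pools. Of meningeal genes Mgp rose (1.09) and Dcn did not pass. Aif1, Tmem119 and Mgp lost the call without 4 or 5 of the single pools, Itgam, Tyrobp and Gad1 without 2 and Sst without pool 9 (adjusted p 0.0555 to 0.213).

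Markers of the thalamus, which lies beneath the cortex, were called lower in 3 of 4 (background 1.76% of all genes tested and 13.1% of named genes called lower). Slc17a6, the vesicular glutamate transporter of subcortical neurons, was at 54.9, 79.2 and 75 CPM in AL and 20.4, 37.5 and 33.9 CPM in AL+LA (log2 fold change -1.19 ± 0.200 SE, adjusted p = 0.00159). Prkcd, a protein kinase C of thalamic relay neurons, was at 23.9, 79.8 and 67.1 CPM against 20.6, 28.2 and 27.1 CPM (-1.16, adjusted p = 0.0278), and lost the call without pool 8, 9, 34, 35 or 36 (-1.25 to -0.84, adjusted p 0.0601 to 0.132). Calb2, given above, is the other, and pool 8 was its lowest AL pool, whereas for Slc17a6 and Prkcd pool 8 was the highest. Tcf7l2 was at 19.6 to 30.8 CPM against 6.65 to 19.4 CPM (-0.96, adjusted p = 0.0562), and passed without pool 35 (-1.29, adjusted p = 0.0302). The 4 summed to 142, 209 and 214 CPM in the AL pools and 52.5, 95.3 and 89.9 CPM in the AL+LA pools, so all AL pools, pool 8 included, were above all AL+LA pools. When pools 7 and 9 were left out, Slc17a6 (-1.39) and Prkcd (-1.66) stayed called. With the cerebellar marker level as a covariate none of the 4 was called, with a median of -1.16 in place of -1.18. Their part in the other differences was not tested. No gene of the lists for the choroid plexus, endothelium, striatum and oligodendrocyte precursors was matched by name.

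At 12 months the same supplement was compared with AL in other rats and other libraries. AL pool 5 was shallow, with 494091 reads on genes, where AL pools 4 and 6 had 3813173 and 2366549 and the AL+LA pools 3257510 to 5214247. There 547 genes (3.17%) were called, 294 higher (1.71%) and 253 lower (1.47%), and 192 were called at both ages, 23.1% of the 831 and 35.1% of the 547. Of the 192, 189 had the same direction. The share of reads not aligned was 30.4% to 36.1% in the 12-month AL pools and 39.3% to 41.0% in the AL+LA pools. How the libraries were made and the diet thus cannot be told apart at this age either. The count of 547 was 457 without pool 5, 953 without pool 4, 494 without pool 6, and 343, 193 and 327 without AL+LA pools 37, 38 and 39. Pools of AL at 12 months also differed in the cerebellar markers, which summed to 45.8 to 1891 CPM there and to 35.6 to 47.4 CPM in 12 m AL+LA, and all 6 were called lower with LA. Without pool 6 Cbln1, Car8, Neurod1 and Zic2 were not called (-1.60 to -0.47, adjusted p 0.0828 to 0.607), and Zic2 was not without pool 5 or 38 either (adjusted p 0.0655 and 0.0672). Genes leading at 12 months were Rps29 (log2 fold change 1.68), RPL38 (1.97) and Rpl8 (1.48), and in the other direction Shank1 (-1.60), a scaffold protein of excitatory synapses, Tcf7l2 (-2.03) and the histone methyltransferase gene Mll2 (-1.15). At 28 months these had 1.60, 1.26, 1.78, -0.88, -0.96 and -0.44 in the same order, the last 2 not past the threshold, and Shank1 not without pool 8, 34, 35 or 36 (-0.98 to -0.45, adjusted p 0.0642 to 0.14). Mt2A was at 1.14 and MT1 at 1.62 at 12 months, both called, and Ftl at 1.81. Mt2A lost the call without pool 4, 5, 38 or 39 (adjusted p 0.0613 to 0.187) and MT1 without pool 4, 38 or 39 (adjusted p 0.0642 to 0.0954). Fth1 was lower with LA at 12 months (-0.60, adjusted p = 0.0203), but not called without pool 5, 37, 38 or 39 (adjusted p 0.055 to 0.122), and its difference between the ages was 1.13 (adjusted p = 0.00736), which each fit that left out 1 pool called. Gstm1 had 0.59 (adjusted p = 0.0543) and Gstp1 0.45 (adjusted p = 0.298).

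Some genes took another course at 12 months, tested as the difference of the LA effect between the ages, which 32 genes (0.186%) passed. Gfap was lower with LA at 12 months (633 ± 62.9 CPM in AL and 381 ± 54.3 CPM in AL+LA, SD, n = 3 pools, log2 fold change -0.73, adjusted p = 0.00729, and -0.64 with 0.0702 without pool 37), and the difference between ages was 2.81 (adjusted p = 8.61e-08). Hba2 had 0.16 at 12 months (difference 1.96, adjusted p = 0.00248) and Nop10 0.09 (1.88, adjusted p = 0.00542). The differences of these 3 genes passed in all 12 fits that left out 1 pool. The class II genes RT1-Ba, RT1-Da and Cd74 had -1.13, -1.46 and -1.28 at 12 months, none past the threshold, with differences of 2.80, 3.18 and 2.80 (adjusted p 0.0156 to 0.0457). Without the 12-month AL+LA pool 38 all 3 were called lower with LA at 12 months (-2.55 to -2.26), and without AL pool 4 or 6 RT1-Da and Cd74 were. Htra1, a secreted serine protease, fell at 28 months (139, 168 and 153 CPM in AL, 67.4, 96.1 and 85.0 CPM in AL+LA, -0.89, adjusted p = 0.00159), and had 0.14 at 12 months (difference -1.04, adjusted p = 0.0457). Rpl22l1 (-1.37) and Sar1b (-1.09) also differed between the ages, and neither passed at 28 months alone. With 1 of the 12 pools left out, the difference lost the call in 8 fits for RT1-Ba, 2 for RT1-Da, 5 for Cd74, 10 for Htra1, 6 for Rpl22l1 and 10 for Sar1b (adjusted p 0.0509 to 0.169). Without the shallow pool 5 it was lost for RT1-Ba, Cd74, Htra1, Rpl22l1 and Sar1b (adjusted p 0.0572 to 0.104) and RT1-Da had 2.75 (adjusted p = 0.0485). The count of such genes was 20 in place of 32 without pool 5, 106 without pool 8, 9 to 17 without any of pools 7, 9, 35, 36, 37, 38 and 39, and 2 without pools 7 and 9 together.

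Among rats restricted until month 12, LA in the diet from then on was compared with the same refeeding without LA. At 28 months 74 genes (0.429%) were called there, 56 higher (0.325%) and 18 lower (0.104%). Of these 20 were among the 831, 2.41% of the 831 and 27% of the 74, with 16 in the same direction. The genes with the smallest adjusted p by name were Rn28s (log2 fold change 0.69), ATP8 of the mitochondrial genome (0.75) and Ccdc47 (0.72), and in the other direction Srrm2 (-0.48), Nat8l (-0.69), which makes N-acetylaspartate, and Mll2 (-0.56). In the lifelong comparison the last 5 of these 6 did not pass, with -0.27, 0.05, 0.19, -0.18 and -0.44 in the same order. Of genes high in rank in the lifelong comparison, Gfap had 0.05 here, Ywhah -0.04, Rpl35 0.09, Gstm1 0.04, Gstp1 -0.29 and RT1-Ba 0.23. The α-globin genes Hba2 and Hba-a2 had a median of 0.43, and Grin2c, lower in rank, had -0.09. None of these genes passed the threshold. Of the groups in the lifelong comparison and this one, 28 m AL alone was low in the share of reads not aligned (27.5% to 33.2%). How the libraries were made and the diet thus cannot be told apart in the difference between the effects. This difference passed for 457 genes (2.65%), 327 of them more positive under lifelong LA (1.90%) and 130 more negative (0.754%). It was 2.05 for Gfap (adjusted p = 2.67e-06), 1.46 for Ywhah (adjusted p = 2.67e-06), 1.71 for Rpl35 (adjusted p = 2.67e-06), 1.63 for Gstp1 (adjusted p = 8.75e-05) and 1.47 for RT1-Ba (adjusted p = 0.00381). With pools 7 and 9 left out the count was 202.

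**Figure D5:**
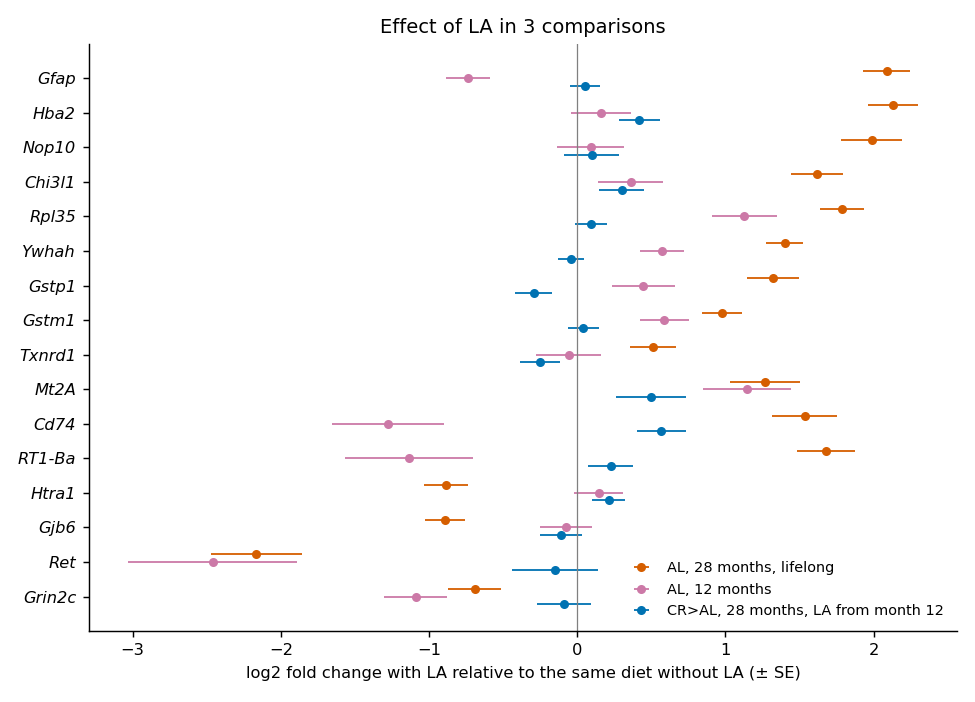
log2 fold change with LA relative to the same feeding without LA (± SE) for 16 genes in rats fed ad libitum to 28 months, rats fed ad libitum to 12 months, and rats refed at month 12 after restriction. Gfap is at 2.09, -0.73 and 0.05 in the 3 comparisons, and Grin2c at -0.69, -1.09 and -0.09.

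The 28 m AL+LA pools were last set beside 28 m CR>AL, rats that ate the diet without LA ad libitum from month 12. Only 5 genes (0.029%) were called, 1 higher (0.0058%) and 4 lower (0.0232%), none of them with a name, and 1052 had an unadjusted p under 0.05. DESeq2 called 4 and edgeR's exact test 13. CR>AL means were 640 CPM for Gfap, 418 CPM for Ctsb, 108 CPM for Rpl35, 109 CPM for Gstm1 and 64.9 CPM for RT1-Ba, and AL+LA means were 729, 400.1, 98.1, 108 and 69.1 CPM. The log2 fold changes of AL+LA relative to CR>AL were 0.19, -0.06, -0.14, -0.02 and 0.09, none past the threshold. This comparison and the main one share the AL+LA pools, so their values are given side by side only, and the difference of 831 and 5 was not tested. The CR>AL pools were like the AL+LA pools in the share of reads not aligned, as given above, and in the cerebellar markers, which summed to 46.6 to 57.5 CPM.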

How the data were processed

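Total RNA of cerebral cortex, depleted of ribosomal RNA, was sequenced by the authors on a SOLiD 5500xl. The authors mapped 75-base reads in colour space with Bowtie to the rn5 build (Ensembl release 71), with at most 2 mismatches and no reads that mapped to several places, and deposited raw read counts per gene from HTSeq. Strandedness and tool versions are not given in the sources used here. The lines for reads on no gene, ambiguous or not aligned were kept out of library sizes. Of 26123 genes, 17230 with at least 1 CPM in at least 3 of 39 libraries were tested by edgeR 4.0.16 (R 4.3.3, limma 3.58.1) with TMM and the quasi-likelihood test, each comparison on its own libraries, with Benjamini-Hochberg adjustment and a threshold of 0.05. DESeq2 1.42.0, edgeR's exact test, other scalings and filters, a fit of all 13 groups, a cerebellar covariate and leaving out pools were alternatives, the fit without AL pools 7 and 9 chosen after seeing the data. Fits were tested on simulated data. Reads on genes were 3109488 to 4537079 per pool, and 3 pools a group cannot give an exact permutation p under 0.1.

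Names came only from the study's supplementary tables of changed genes (1669 identifiers), so lists are covered in part and toward genes the study called. The members and gene lists were chosen with earlier results of these data known. Genes named are the 12 per direction with the smallest adjusted p and pools apart, up to 4 members per list and direction (or the one with the smallest p), genes the study names for LA, up to 3 per direction of each further comparison, and cell type markers. Gria4, RT1-Bb, Gsto1 and Sod1 were named after their values were seen. A few genes that these rules would name are not reported here, though they count in the totals of their lists. Promoters are RefSeq sequences, matched by symbol for 12 of 12 genes. The spread between pools is of pairs of rats. Python 3.11.15 and scipy 1.17.1 were used for summaries.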

Additional observations from a re-analysis of the deposited data

Results flagged for a closer look

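The effect of LA at 28 months differed from its effect at 12 months for 32 genes, and the effect of lifelong LA from that of LA begun after restriction for 457, each by an edgeR quasi-likelihood test of the difference itself with adjusted p under 0.05. Values are the difference of the log2 fold changes, with the 28-month lifelong effect first. In the test against LA after restriction, 28 m AL was the only group low in reads not aligned, as given above. How the libraries were made and the diet thus cannot be told apart in that difference.

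Between the ages, the difference was positive for RT1-Da (3.18), Gfap (2.81), RT1-Ba (2.80), Cd74 (2.80), Itgam (2.49), Hba2 (1.96), Nop10 (1.88), Hba-a2 (1.71), Chi3l1 (1.25) and Fth1 (1.13). It was negative for Rpl22l1 (-1.37), Sar1b (-1.09) and Htra1 (-1.04). In Gfap and Fth1 the effects at both ages passed the threshold in opposite directions. The difference lost the call in 10 of 12 fits that left out 1 pool for Chi3l1, 7 for Itgam and 6 for Hba-a2 (adjusted p 0.052 to 0.157). Losses for RT1-Ba, RT1-Da, Cd74, Htra1, Rpl22l1 and Sar1b are given above.

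Between lifelong LA and LA after restriction, the difference was positive for Ftl (2.61), Gfap (2.05), Nop10 (1.90), Ndufa3 (1.86), Rpl8 (1.85), Hba2 (1.73), RT1-Da (1.73), Atp5i (1.72), Rpl35 (1.71), Rn28s (1.70), Ndufb7 (1.67), Dbndd2 (1.66), Gstp1 (1.63), Rps29 (1.62), Npy (1.53), Tmsb10 (1.52), RT1-Db1 (1.51), RT1-Ba (1.47), Ywhah (1.46), RPL38 (1.46), Hba-a2 (1.39), Uqcrb (1.35), Chi3l1 (1.33), Uqcrb (1.26), Ctsb (1.22), Cox6b1 (1.19), Cox8a (1.08), Arc (1.08), Uqcr11 (1.08), Ndufab1 (1.02), Mt3 (0.97), Gnas (0.96), Gstm1 (0.95), Uqcrq (0.95), Mog (0.94), Cox5b (0.92), Sst (0.84), Cox6a1 (0.83), Bhlhe40 (0.83), Nrgn (0.82), Txnrd1 (0.78), Dbp (0.73), Rtf1 (0.70), Fth1 (0.69), Srrm2 (0.69) and Camk2n1 (0.63). It was negative for Gabra6 (-12.05), Fat2 (-7.17), Cbln1 (-3.61), Neurod1 (-3.39), Car8 (-2.68), Zic2 (-2.46), Dnah11 (-2.40), Ret (-2.0), Ctxn3 (-1.75), Unc13c (-1.70), Heph (-1.54), RGD1559955 (-1.34), HIST1H4B (-1.34), Camk4 (-1.26), Atp5c1 (-1.21), Htra1 (-1.08), H2afy (-1.08), H3f3c (-1.05), Ddx3x (-1.02), Trpm3 (-0.94), Camk2d (-0.88), Gjb6 (-0.77) and Kat6a (-0.75). Gabra6, Fat2, Cbln1, Neurod1, Car8 and Zic2 among the latter are the cerebellar markers that AL pools 7 and 9 hold, and without those pools 202 genes differed in place of 457, and 2 in place of 32 between the ages. The part of this signal in each single difference was not tested.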

How the results depend on the processing

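No paired analysis was possible because the pool numbers are not shared between groups. For the 28-month comparison of AL+LA with AL, 831 genes became 1398 with no filter on low counts, 543 with at least 10 counts in every library, 397 with the cerebellar marker level as a covariate and 271 without AL pools 7 and 9, and 351 to 1467 when 1 pool was left out. DESeq2 (727), edgeR's exact test (1101), RLE scaling (821) and leaving out Rn28s (829) stayed within 1.5 times the count. At 12 months 547 became 1052 with no filter, 352 with at least 10 counts and 1207 with all 13 groups in one fit (193 to 953 with 1 pool left out). For CR>AL+LA against CR>AL 74 became 164 with no filter, and 2 both with all 13 groups and with the covariate (43 to 78). For AL+LA against CR>AL 5 became 13 by the exact test, 66 with no filter, 2 with at least 10 counts, 2 with the CPM filter taken over all lines, and 0 with all 13 groups or the covariate (0 to 46). The 32 genes differing between ages became 58 by DESeq2, 185 with no filter, 74 with all 13 groups, 74 with the covariate and 2 without AL pools 7 and 9 (9 to 106). The 457 differing between lifelong LA and LA after restriction became 819 with no filter, 201 with all 13 groups, 111 with the covariate and 202 without AL pools 7 and 9 (246 to 1013). Fewer genes are tested under a filter and fewer samples without pools, and otherwise the cause was not tested.

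The difference in reads not aligned was 7.09 to 9.97 percentage points with 1 pool left out, and that in aligned reads on no gene, 0.281 points, was -0.363 to 0.645, and turned to -0.363 without AL pool 9. Of 126 genes named by rule, 71 kept direction and side of the threshold without AL pools 7 and 9, 49 fell below the threshold, 1 passed it and 5 turned. With the covariate 77 kept both, 45 fell below, 1 passed and 3 turned. Without AL pools 7 and 9 the log2 fold changes that turned were ATP8 (0.13), C1qc (-0.41), Fat2 (0.88), Gabra6 (0.75) and Neurod1 (0.39), and with the covariate C1qc (-0.20), Fat2 (0.90) and Neurod1 (0.055). With 1 pool left out, C1qc (-0.24 to 0.28) turned without pools 7, 9 and 36, Dcn (-0.066 to 0.45) without pools 8, 9 and 36, Ccdc47 (-0.11 to 0.23) without pools 8 and 35, ATP8 (-0.47 to 0.19) without pool 9 and Nat8l (-0.32 to 0.075) without pool 8. Depth of 3109488 to 4537079 reads on genes limits genes of a few CPM, and the 3 pools a group limit every test.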
